A study of Mus musculus with 26 samples.

Results

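The response of splenic monocytes to the PI3K p110δ inhibitor GS9820 was compared with the response of splenic polymorphonuclear cells (PMN, mainly neutrophils). For each gene the treated minus vehicle difference in PMN was subtracted from the treated minus vehicle difference in monocytes. A value above 0 is a monocyte effect that lies above the PMN effect, and it can come from either cell type. All 14 sorted-cell libraries of the 26 in the series entered, 7 of monocytes and 7 of PMN, and the comparison itself was defined without using measured values. The 12 tumour libraries did not enter.

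All mice were tumour-bearing KPC mice, an engineered strain that develops pancreatic cancer and in which, as the name is generally used, a Cre recombinase acts in the pancreas. The labels give neither alleles nor ages. Vehicle animals gave 3 libraries per cell type and animals given GS9820 for 14 days gave 4 per cell type. Cells were sorted from the spleen. The labels mark PMN as "low" and monocytes as "high", without saying of what, and do not say whether each library was a separate mouse. The p-values therefore measure the spread between these samples, which may in part be technical. Libraries were made with either of 2 kits, and which kit served which library is not given, so a kit difference could not be separated from the groups.

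Class I PI3K makes the membrane lipid PIP3, which recruits Akt and other kinases to the membrane. The p110δ catalytic subunit, the product of Pik3cd, is found mostly in white blood cells. The related p110γ, encoded by Pik3cg, acts below chemoattractant receptors in myeloid cells. Akt restrains FoxO transcription factors and feeds growth signals through mTOR. In tumour-bearing mice the spleen makes many immature myeloid cells of the neutrophil and monocyte lines, and these cells can suppress T cells.

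Mature neutrophil markers were highest in the libraries labelled PMN and classical monocyte markers in those labelled monocytes. Mature neutrophil markers averaged 9.79 to 10.53 in the PMN libraries and 5.13 to 7.57 in the monocyte libraries, as means of deposited log2 values over 22 genes. Classical monocyte markers averaged 6.09 to 6.94 in PMN and 7.72 to 9.42 in monocytes (22 genes). Azurophil granule genes of neutrophil precursors were higher in the monocyte libraries (7.64 to 9.51) than in PMN (4.86 to 6.15). Specific and gelatinase granule genes averaged 8.01 to 10.09 in monocytes and 10.16 to 10.88 in PMN. B cell, eosinophil, platelet, acinar pancreas, and stromal and endothelial markers had higher means in every PMN library than in any monocyte library. B cell markers averaged 4.54 to 5.47 in PMN and 2.76 to 3.90 in monocytes. Eosinophil markers averaged 2.56 to 5.63 in PMN and 0.34 to 2.11 in monocytes, and platelet markers 2.90 to 3.80 and 0.60 to 1.37. The remaining marker lists overlapped between the cell types. Non-classical monocyte markers averaged 3.36 to 5.39 in monocytes and 4.48 to 6.62 in PMN. Resident macrophage markers averaged 3.37 to 3.95 and 3.31 to 5.23, and MHC class II genes 5.24 to 7.78 and 6.01 to 7.39. Among monocyte vehicle libraries, number 3 stood apart with the lowest neutrophil and highest monocyte marker means. Pairs of monocyte vehicle libraries correlated at 0.913 to 0.963 across genes, and pairs of monocyte treated libraries at 0.973 to 0.984. All libraries held nearly the same distribution of values, so depth is unknown.

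No gene passed the threshold for a difference between the 2 responses. Of 13968 genes tested, 0 (0%) had an adjusted p under 0.05 (limma, Benjamini-Hochberg over all genes; smallest adjusted p = 0.9998, smallest unadjusted p = 0.000355). At an unadjusted p under 0.05 there were 142 genes (1.02%) with a monocyte effect above the PMN effect and 127 (0.909%) below it. The responses themselves had 0 genes past the threshold (0%) in monocytes and 0 (0%) in PMN, with 335 (2.4%) and 430 (3.08%) at an unadjusted p under 0.05. The median difference was -0.00958, with the 25th and 75th percentiles at -0.217 and 0.185, and 48.6% of genes lay above 0. Treated and vehicle libraries did not overlap in monocytes only for 195 genes (1.4%) with treated above and 261 (1.87%) with treated below. In PMN only, these were 238 (1.7%) and 274 (1.96%). Genes named below were picked by small p, so non-overlap in them is no further support.

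The size of difference that these libraries leave room for depended on the level of the gene. The 95% confidence interval lay within ±1 log2, that is within a 2-fold difference between the responses, for 7713 genes (55.2%). That share was 6.66% of the 2418 genes with a mean log2 value under 2, 53.5% of those from 2 to 5, 76.8% from 5 to 8 and 72.5% at 8 or more. For nearly all low genes the interval thus reached a 2-fold difference between the responses. The point estimate was beyond ±1 for 582 genes. Across genes the 2 effects had the same sign in 48.9%, with Pearson's r of 0.177 and Spearman's rho of -0.00887, a description over genes normalized together and not over independent points.

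**Figure D1:**
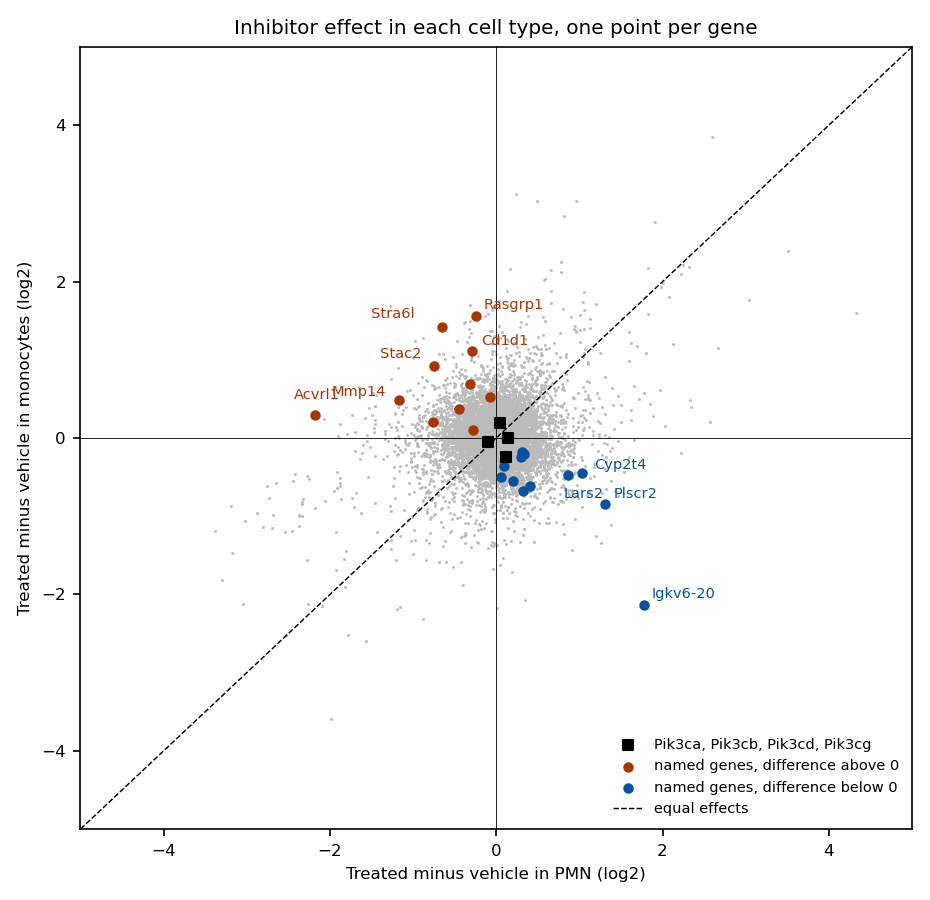
Treated minus vehicle in monocytes (vertical axis, log2) against treated minus vehicle in PMN (horizontal axis, log2) for 13968 genes (grey points). The dashed line marks equal effects, coloured points are named genes and black squares the 4 genes of class I PI3K catalytic subunits, which lie near the origin; most genes lie within 1 log2 of it on both axes.

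No gene of the class I PI3K catalytic subunits, Pik3cd of the drug's target among them, passed the threshold for a difference between the responses. Pik3cd (ENSMUSG00000039936, chromosome 4, 149649168 to 149702571, GRCm38), which encodes p110δ itself, had a difference of 0.15 ± 0.29 (SE; 95% interval -0.47 to 0.78). It stood at 8.74, 8.92 and 9.11 in vehicle PMN and at 9.05, 8.65, 9.11 and 9.06 in treated PMN. In monocytes it stood at 8.24, 8.06 and 9.01 with vehicle and at 8.49, 8.83, 8.51 and 8.69 after treatment. The groups overlapped in both cell types, and the vehicle monocytes alone covered the widest range. Pik3cg had a difference of 0.05 ± 0.21 (interval -0.41 to 0.50) and Pik3ca, for p110α, one of -0.13 ± 0.21 (-0.60 to 0.33). Pik3cb, for p110β, had the widest interval of these 4, -0.37 ± 0.36 (-1.15 to 0.41). Each of these except Pik3cb had an interval inside ±1. The signs of Pik3ca, Pik3cd and Pik3cg changed when single libraries were left out.

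Over 13 kept genes of PI3K subunits and adaptors the median difference was -0.03, with 6 above 0, 7 below and 0 past the threshold. Of these, 11 had an interval inside ±1. Pik3ap1, an adaptor that brings PI3K to B cell and Toll-like receptors, had the smallest p of the list (-0.28 ± 0.21, unadjusted p = 0.206). Its monocyte effect was -0.47, with vehicle libraries at 6.07, 6.46 and 6.13 and treated libraries at 5.66, 5.54, 6.04 and 5.76, which did not overlap. Its PMN effect was -0.18. Pik3r6, a regulatory partner of p110γ, stood at 0.28 ± 0.28, but 0.05 without monocyte vehicle library 2.

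**Figure D2:**
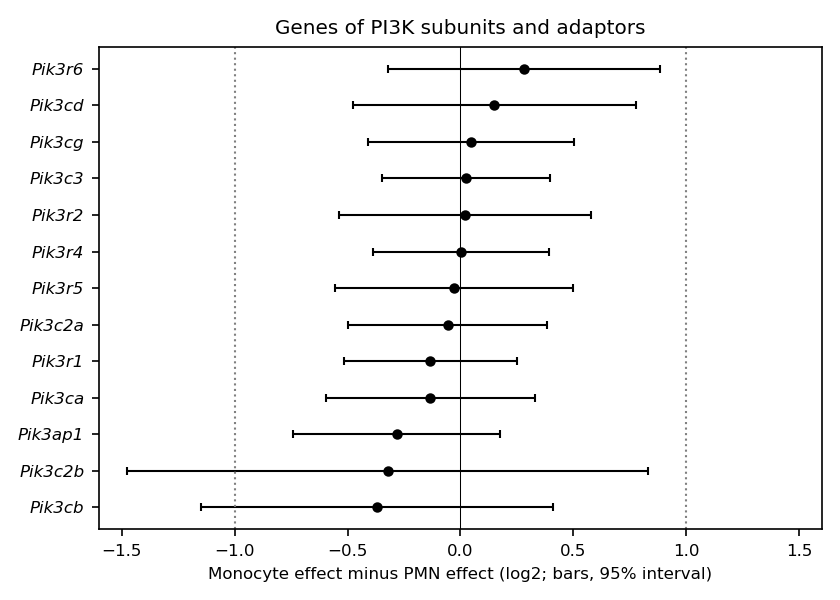
Difference between the responses (monocyte effect minus PMN effect, log2) for 13 genes of PI3K subunits and adaptors, with 95% confidence intervals; dotted lines mark ±1. All 13 intervals include 0, and those of Pik3cb and Pik3c2b reach beyond -1.

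Downstream of PI3K the pattern was similar. Of 30 genes of inositol phosphatases and the Akt pathway, 14 lay above 0 and 16 below, with a median of -0.04, 26 intervals inside ±1 and 0 past the threshold. Rptor, the mTORC1 scaffold, had the smallest p (-0.32 ± 0.17, unadjusted p = 0.0771). Its treated PMN libraries (4.46, 4.73, 4.39 and 4.51) all lay above vehicle PMN (4.33, 4.22 and 4.25), while its monocyte groups overlapped. Tsc2, which restrains mTORC1, had -0.22 ± 0.12. Of 36 FoxO factors and targets, 18 lay above and 18 below 0, with a median of 0.01 that ran from -0.252 to 0.3 without monocyte vehicle libraries 2 and 3 in turn. Ccng2, a cyclin induced by FoxO, had -0.52 ± 0.27, the insulin receptor gene Insr -0.39 ± 0.22, and the catalase gene Cat 0.61 ± 0.38. None of these passed.

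Among the 12 genes named with a difference above 0, chosen by smallest unadjusted p because none passed, Icosl (ENSMUSG00000000732, chromosome 10, 78069302 to 78083913), the ligand of the T cell co-stimulator ICOS, differed through monocytes. Its vehicle monocytes stood at 6.06, 5.94 and 5.97 and its treated monocytes at 6.32, 6.53, 6.47 and 6.74, without overlap. Its PMN stood at 6.96, 7.47 and 7.05 with vehicle and 7.12, 6.80, 7.18 and 7.22 after treatment. The difference was 0.60 ± 0.20 (unadjusted p = 0.0109, adjusted p = 0.9998 by limma), from 0.52 in monocytes and -0.08 in PMN.

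Rasgrp1 (ENSMUSG00000027347, chromosome 2, 117279993 to 117343001), a Ras activator that responds to diacylglycerol, had the largest monocyte effect of the 12, 1.56. Its monocytes stood at 3.80, 4.38 and 3.73 with vehicle and at 4.28, 5.604, 6.10 and 6.15 after treatment. Treated monocyte libraries 2, 3 and 4 lay above all vehicle monocytes, and treated library 1 did not. Its PMN ranged from 3.79 to 5.24 with vehicle and from 3.84 to 4.87 after treatment. The difference was 1.81 ± 0.65 (unadjusted p = 0.0152).

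The same 3 treated monocyte libraries were the high ones for Cd1d1, which presents lipids to NKT cells. Cd1d1 stood at 4.50, 5.33 and 4.47 in vehicle monocytes and at 5.10, 5.99, 6.08 and 6.31 in treated monocytes, and its difference was 1.39 ± 0.53. Prdm1, which encodes the repressor Blimp-1, had a difference of 1.01 ± 0.37 from 0.69 in monocytes and -0.32 in PMN. Stac2, an adaptor of calcium channels, had treated monocytes (0.94, 1.67, 1.64 and 1.93) above vehicle monocytes (0.30, 0.92 and 0.66) and a difference of 1.66 ± 0.53. Stra6l, a relative of the retinol-uptake receptor, had 2.08 ± 0.77 at low values, with vehicle monocytes at -0.73, -0.83 and 0.86.

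For other genes the PMN effect made up most of the difference. Mmp14 (ENSMUSG00000000957, chromosome 14, 54431612 to 54445364), a membrane-anchored matrix metalloproteinase, stood at 2.51, 1.89 and 1.56 in vehicle PMN and at 1.30, 0.18, 0.98 and 0.80 in treated PMN, without overlap. Its monocytes stood at 1.89, 1.37 and 1.99 with vehicle and at 1.27, 2.84, 2.84 and 1.98 after treatment. The difference was 1.66 ± 0.57 (unadjusted p = 0.0126), made of -1.17 in PMN and 0.48 in monocytes. Treated PMN also lay below vehicle PMN without overlap for Acsl5, an acyl-CoA synthetase, with an effect of -0.28. The same held for Alkbh2, a DNA repair enzyme, at -0.76, and for Acvrl1, a TGF-β family receptor, at -2.18. Acvrl1 had the largest difference of the 12, 2.47 ± 0.92. Its vehicle PMN stood at 4.37, 3.80 and 7.08, and without PMN vehicle library 3 its difference was 1.47. Fgfr2, a fibroblast growth factor receptor, had 0.82 ± 0.26 with overlap in both cell types.

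**Figure D3:**
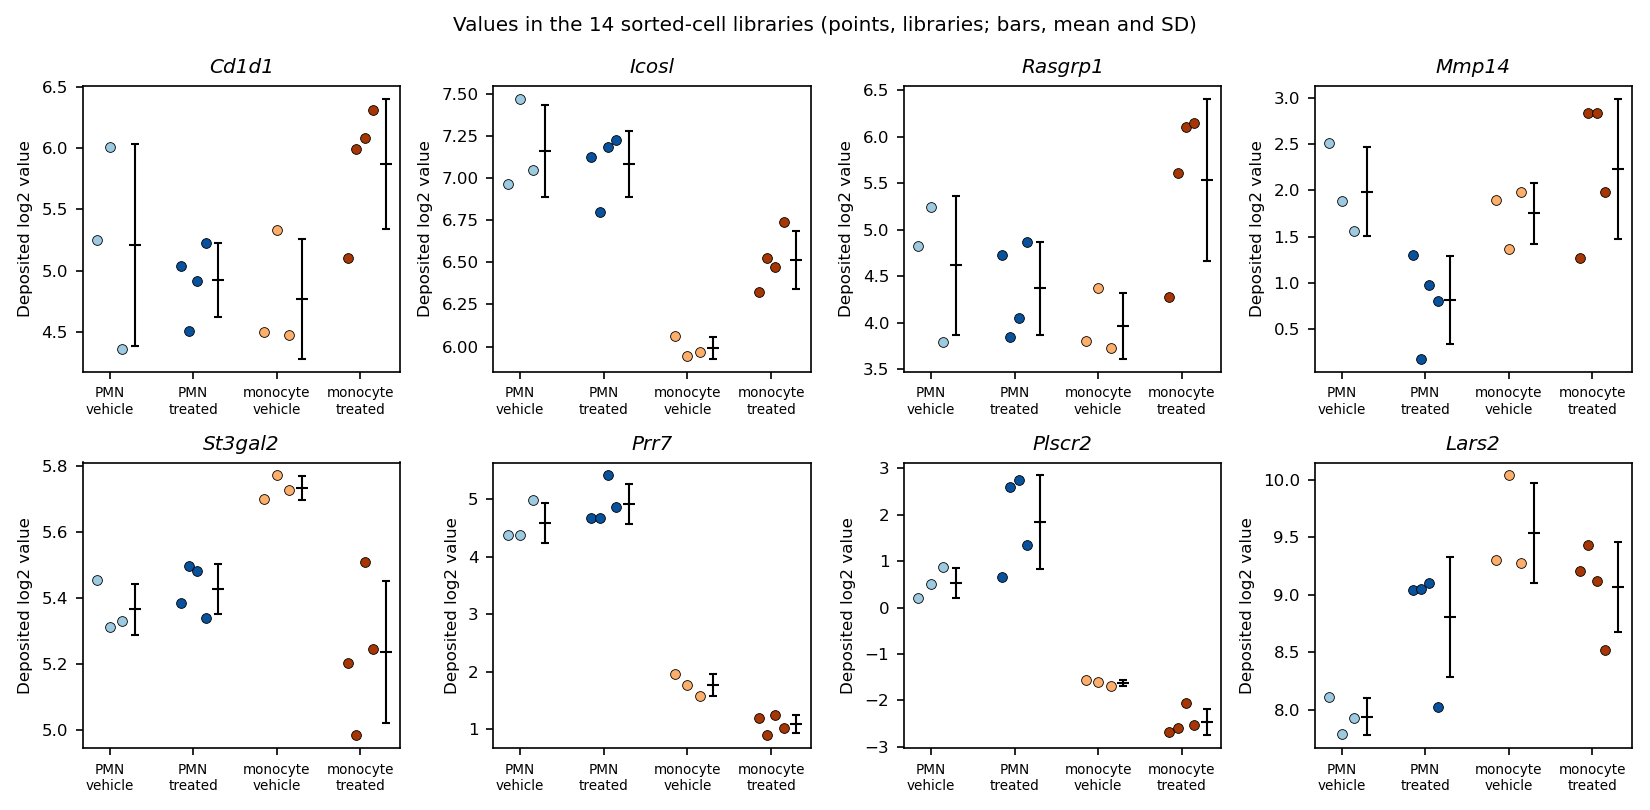
Deposited log2 values of 8 named genes in the 14 libraries (points; horizontal axis, the 4 groups), with group means and SD beside them. Treated monocytes lie above vehicle monocytes for Icosl and below them for St3gal2, Prr7 and Plscr2. All monocyte values of Plscr2 lie below 0, the filter minimum. Treated PMN lie below vehicle PMN for Mmp14.

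Among the 12 genes named with a difference below 0, the smallest p belonged to St3gal2 (ENSMUSG00000031749, chromosome 8, 110919922 to 110972480), which adds sialic acid to glycans. It stood at 5.70, 5.77 and 5.73 in vehicle monocytes and at 5.20, 4.98, 5.51 and 5.25 in treated monocytes, without overlap. Its PMN values were 5.45, 5.31 and 5.33 with vehicle and 5.38, 5.50, 5.48 and 5.34 after treatment. The difference was -0.56 ± 0.16 (unadjusted p = 0.00407), from -0.50 in monocytes and 0.06 in PMN.

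Prr7, a transmembrane adaptor, stood at 1.95, 1.76 and 1.57 in vehicle monocytes and at 1.19, 0.89, 1.25 and 1.02 in treated monocytes. Its PMN stood at 4.38, 4.38 and 4.98 with vehicle and 4.68, 4.68, 5.41 and 4.86 after treatment, and the difference was -1.001 ± 0.30. Plscr2, of the phospholipid scramblase family, had treated PMN at 0.66, 2.59, 2.75 and 1.35 against 0.22, 0.50 and 0.87 with vehicle. Its monocytes stood at -1.56, -1.61 and -1.69 with vehicle and at -2.69, -2.61, -2.05 and -2.53 after treatment, without overlap. All these monocyte values lay below the filter minimum of 0, and the gene was kept through its PMN values. The difference was -2.16 ± 0.66. Oxr1, which protects against oxidative damage, had vehicle monocytes at 7.98, 8.06 and 7.68 and treated monocytes at 7.45, 7.58, 7.57 and 7.58. Its difference was -0.46 ± 0.14.

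Srf, Rev3l and Amdhd2 had small differences with narrow errors. Srf, the serum response factor, had treated PMN (6.53, 6.44, 6.70 and 6.79) above vehicle PMN (6.39, 6.08 and 6.37) and a difference of -0.54 ± 0.18. Rev3l, the catalytic subunit of a translesion DNA polymerase, had treated monocytes below vehicle monocytes and -0.54 ± 0.18. Amdhd2, of amino sugar breakdown, had treated PMN above vehicle PMN and -0.48 ± 0.15. Ccpg1os had -1.01 ± 0.33, Rell2, of the RELT family, -0.75 ± 0.25 and Cyp2t4, a cytochrome P450, -1.48 ± 0.49. Values of Cyp2t4 were low, with monocyte means of -0.42 with vehicle and -0.87 after treatment. Igkv6-20, an immunoglobulin kappa variable segment, had the largest difference of the 12, -3.90 ± 1.22. Segments of this family are near-identical, so its reads may be shared, and its values overlapped in both cell types.

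Lars2 (ENSMUSG00000035202, chromosome 9, 123366927 to 123462666), the mitochondrial leucyl-tRNA synthetase, had a difference of -1.33 ± 0.41. It stood at 8.11, 7.79 and 7.93 in vehicle PMN and at 9.04, 9.05, 9.10 and 8.02 in treated PMN. Its monocytes stood at 9.30, 10.04 and 9.27 with vehicle and 9.20, 9.43, 9.12 and 8.52 after treatment. Gm15564 and Mir6236 were looked at after their values were seen, and Gm15564 followed the same libraries. Gm15564 stood at 1.75, 1.33 and 1.67 in vehicle PMN and at 2.81, 3.28, 3.30 and 2.24 in treated PMN, with treated number 4 again lowest. Its monocytes stood at 2.23, 2.69 and 2.53 with vehicle and 1.56, 2.17, 1.82 and 0.84 after treatment. Mir6236 had a difference of -1.48 ± 0.46. Of the single leave-outs, that of PMN treated library 4 gave the lowest difference for Lars2 (-1.59), Gm15564 (-2.44) and Mir6236 (-1.81). What these 3 genes share was not tested.

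Gm15564, annotated as an antisense RNA whose reads may come from the other strand, had the smallest p of all genes (-2.21 ± 0.46, unadjusted p = 0.000355, adjusted p = 0.9998 by limma). It was also 1 of the 3 genes (0.0215% of those tested) whose treated and vehicle libraries did not overlap in either cell type and lay in opposite directions. The others were Gm6710, with 0.74 ± 0.22, and the ribosomal protein pseudogene Rpl36-ps12, with -1.98 ± 0.56, whose reads may be shared with its parent gene. These 3, and the next 2, lie outside the genes named by rule, as predicted or unnamed models and pseudogenes, and were chosen after their values were seen. 2210418O10Rik had 1.90 ± 0.41, with treated PMN at -1.13, -0.20, -0.71 and -0.54 below vehicle PMN at 1.38, 0.95 and 0.32. Gm6736, a processed pseudogene whose reads may also be shared, had 1.01 ± 0.25, with treated PMN at 1.68, 1.55, 2.12 and 2.05 below vehicle PMN at 2.92, 2.60 and 2.71. All 5 kept their sign without any 1 library, which their choice from these same libraries makes likely and which is no separate support.

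The 52 gene lists held 851 of the tested genes, of which 0 passed the threshold and 6 (0.705%) had an unadjusted p under 0.05. Of these 6, 4 lay above 0, Itgax and Prdm1 among them, and 2 below, Per3 and Pfkfb3. Among all 13968 genes tested there were 269 in both directions together, 1.02% above 0 and 0.909% below 0. List medians lay above 0 for 27 lists. The sign of the median held without any 1 library for 20 lists and changed for 32. In 32 lists 1 end of that range was reached without monocyte vehicle library 3, and in 28 without monocyte vehicle library 2. Members of a list vary together between libraries, so counts of members on 1 side of 0 are no test. Because these are bulk samples of sorted cells, fewer cells of a type and less RNA per cell cannot be told apart.

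**Figure D4:**
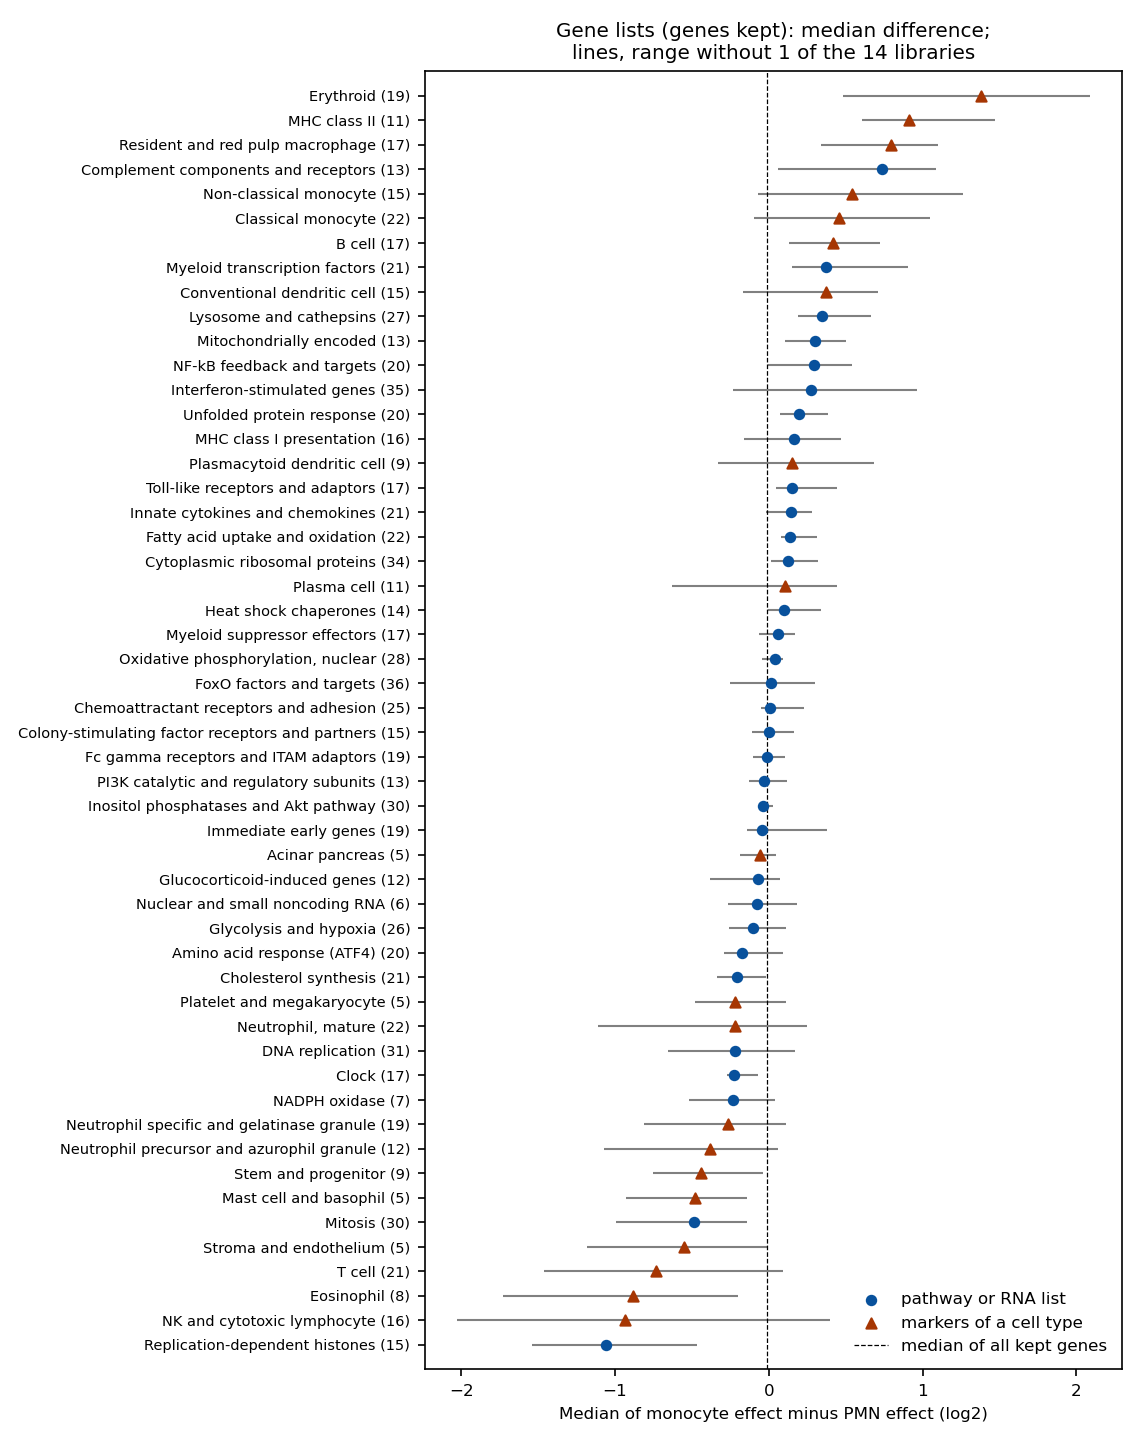
Median difference between the responses (log2) for 52 gene lists, with the number of kept genes in brackets; grey lines span the medians obtained without 1 of the 14 libraries. Erythroid and MHC class II lists lie highest and replication-dependent histones lowest, and many ranges cross the dashed median of all genes.

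MHC class II genes, which load and display peptides to CD4 T cells, were the list whose direction held most fully. All 11 lay above 0, with a median of 0.91 (0.995 in monocytes and -0.05 in PMN), and 0 passed. All 11 lay above 0 without each library in turn, with medians from 0.607 without PMN vehicle library 2 to 1.47 without monocyte vehicle library 3. Without vehicle number 2 in both cell types, 8 of 11 lay above 0 and the median was 0.251.

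The list means by library show where this came from. Vehicle monocytes stood at 5.55, 5.24 and 7 and treated monocytes at 5.45, 7.30, 6.74 and 7.78. Vehicle library 3 lay among treated libraries 2 to 4, and treated library 1 among vehicle libraries 1 and 2. PMN covered 6.01 to 7.39 with vehicle and 6.12 to 7.19 after treatment.

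Ciita, the master activator of class II genes, stood at 4.05, 4.49 and 6.38 in vehicle monocytes and at 4.13, 7.32, 6.62 and 7.55 in treated monocytes. Its difference was 1.40 ± 1.13 (unadjusted p = 0.237). H2-Eb2 had 1.31 ± 0.62 and H2-DMb2, of the peptide editor, 0.91 ± 0.56. Itgax, the integrin CD11c of dendritic and other myeloid cells, had 1.33 ± 0.54 (unadjusted p = 0.0294), from 0.68 in monocytes and -0.65 in PMN. Of 16 genes of MHC class I presentation, 13 lay above 0, with a median of 0.165 that became -0.161 without monocyte vehicle library 2.

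Genes of monocyte and macrophage identity lay mostly above 0 as well. Of 22 classical monocyte markers 15 were above 0 (median 0.455), of 15 non-classical monocyte markers 12 (0.542), and of 21 myeloid transcription factors 14 (0.372). The medians of both marker lists turned negative without monocyte vehicle library 2 (-0.0947 and -0.069), and that of the transcription factors ran from 0.148 to 0.904 without single libraries. Clec4a3, an inhibitory lectin receptor of monocytes, had 1.16 ± 0.63, while the classical marker Ly6c1 had -0.66 ± 0.34. Ly6c1 stood at 8.35, 8.21 and 8.32 in vehicle monocytes and at 8.12, 8.01, 7.79 and 7.21 in treated monocytes, without overlap. The interferon regulatory factors Irf5 and Irf8 had 0.74 ± 0.42 and 0.71 ± 0.47.

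Neutrophil genes lay mostly on the other side. Of 22 mature neutrophil markers 17 were below 0 (median -0.219), of 12 azurophil granule genes 11 (-0.384), and of 19 specific and gelatinase granule genes 16 (-0.267). Medians without single libraries ran from -1.11 to 0.246, from -1.07 to 0.0628 and from -0.812 to 0.111. Prss57, an azurophil serine protease, had -0.81 ± 0.63, but -0.14 without monocyte vehicle library 2. Acod1, which makes itaconate, had -0.81 ± 0.75. Slfn4, a myeloid Schlafen gene, had -0.65 ± 0.78, but 0.03 without monocyte vehicle library 1. Il1b went the other way, at 0.78 ± 0.81. Mature neutrophil markers in vehicle monocytes averaged 7.57, 7.27 and 5.13, a wider span than the 5.58 to 6.95 of treated monocytes. The part of neutrophil RNA in monocyte libraries in these differences was not tested.

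All 30 mitosis genes lay below 0, with a median of -0.487 (-0.238 in monocytes and 0.271 in PMN), and so did all 31 DNA replication genes (median -0.22), with 0 past the threshold in either list. Ndc80 and Ttk, of the kinetochore and the spindle checkpoint, had -0.96 ± 0.59 and -0.97 ± 0.60. Aurkb, the Aurora B kinase, had -0.58 ± 0.41.

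Mitosis list means were 7.22, 7.68 and 5.99 in vehicle monocytes and 7.18, 6.47, 7.004 and 6.28 in treated monocytes. In PMN they were 4.48, 4.11 and 4.63 with vehicle and 4.88, 5.01, 4.59 and 4.29 after treatment. The groups overlapped in both cell types. The mitosis median ran from -0.994 without monocyte vehicle library 3 to -0.142 without monocyte vehicle library 2, and it was 0.0294, with 19 of 30 genes above 0, without vehicle number 2 in both cell types. The DNA replication median became 0.17 without monocyte vehicle library 2, with 25 genes above 0.

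Replication-dependent histone genes, whose transcripts lack poly(A) tails and so also follow how RNA was selected, had 14 of 15 members below 0 and a median of -1.06. That median was -0.47 without monocyte vehicle library 2, -0.584 without PMN vehicle library 1 and -1.54 without monocyte vehicle library 3. With a pseudocount of 1 it was -0.738. Their list means in monocytes were 2.39, 3.48 and 1.76 with vehicle and 2.38, 1.87, 1.62 and 1.23 after treatment. Hist1h1e, a linker histone, had -1.12 ± 0.56 with a monocyte effect of -1.19. Histone genes are close in sequence, so reads may be split between them. The part of RNA selection or kit in this difference was not tested.

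**Figure D5:**
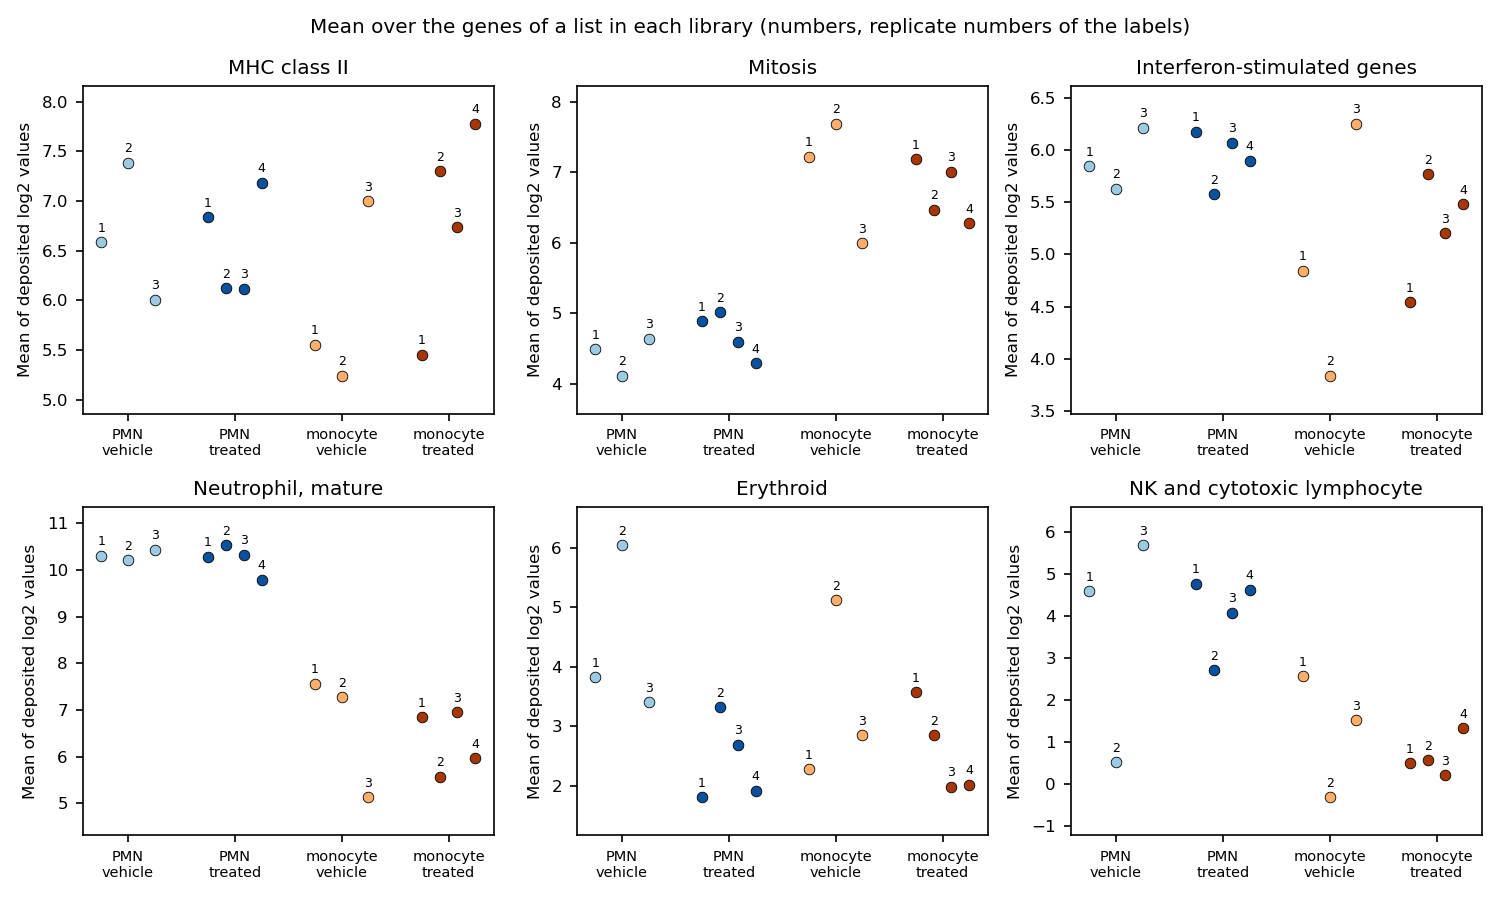
Mean of the deposited log2 values over 6 gene lists in each library (vertical axis), by group (horizontal axis), with the replicate numbers of the labels. Monocyte vehicle 3 lies apart from vehicle 1 and 2 for MHC class II, mitosis, interferon and neutrophil lists, and vehicle 2 has the highest erythroid mean in both cell types.

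Inflammatory signalling lists lay mostly above 0, with wide ranges. Of 20 NF-κB feedback genes and targets 16 lay above 0 (median 0.295, and -0.00407 without monocyte vehicle library 2). Nfkbie and Nfkb1, an inhibitor and a subunit of NF-κB, had 0.78 ± 0.53 and 0.39 ± 0.28, and the adhesion molecule Icam1 0.71 ± 0.63. Of 35 interferon-stimulated genes 27 lay above 0 (median 0.276). Without monocyte vehicle library 2 that median was -0.234 with 3 of 35 above 0, and without monocyte vehicle library 3 it was 0.965 with 33 above 0. Vehicle monocytes spanned 3.83 to 6.26 in the mean of this list and treated monocytes 4.54 to 5.77. Parp14 had 0.67 ± 0.65, Oas2, an antiviral sensor of double-stranded RNA, 0.72 ± 0.73, and Ifit2 -0.50 ± 0.51. Without monocyte vehicle library 2 Parp14 stood at 0.04 and Oas2 at -0.02, and without PMN vehicle library 2 Ifit2 stood at -0.01.

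Receptors, ligands and effectors of myeloid cells were balanced. Of 21 innate cytokines and chemokines, 12 lay above and 9 below 0 (median 0.145, but -0.0201 without PMN treated library 2). Cxcl2, a neutrophil chemoattractant, had 1.51 ± 1.13 (0.64 without PMN treated library 4), of which -1.61 came from PMN, at 3.43, 4.51 and 3.62 with vehicle and 2.72, 4.44, 2.20 and -0.39 after treatment. Csf1, the macrophage growth factor, had -0.37 ± 0.28. Of 25 chemoattractant receptors and adhesion genes, 13 lay above and 12 below (median 0.00513), and Itgax stood at 1.33 ± 0.54. Among 15 genes of colony-stimulating factor signalling (median 0.00257), Csf2rb2, a receptor chain for interleukin-3, had 0.53 ± 0.34, and the kinase Jak2 -0.37 ± 0.30. Csf2rb2 stood at 6.90, 7.23 and 7.28 in vehicle monocytes and at 7.55, 8.07, 7.91 and 7.67 in treated monocytes, without overlap.

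Effectors of myeloid suppression gave no common direction. Of 17 kept genes, 10 lay above and 7 below 0, with a median of 0.0587 and 0 past the threshold. Hif1a, the oxygen-regulated transcription factor, had 0.45 ± 0.24, with monocytes at 6.54, 6.90 and 6.80 with vehicle and 7.16, 7.38, 6.996 and 6.70 after treatment. Ptges, of prostaglandin synthesis, had -0.73 ± 0.61. Of 17 Toll-like receptor genes 12 lay above 0 (median 0.152, but 0.049 without monocyte vehicle library 2), and Tlr9, the DNA sensor, had 1.19 ± 0.71. The Fc receptor list (median -0.0143), immediate early genes (-0.0451; Fosb -1.51 ± 1.03) and NADPH oxidase genes (-0.233) held members on both sides. Without monocyte vehicle library 3 the immediate early median was 0.381, and without monocyte vehicle library 1 the NADPH oxidase median was 0.0409.

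Lysosomal and metabolic lists gave small medians. Of 27 lysosome and cathepsin genes 22 lay above 0 (median 0.343, 0.187 to 0.663 without single libraries). The protease gene Ctsh had 0.53 ± 0.28. Cd36, the fatty acid and lipoprotein receptor, had an effect of -0.99 in monocytes and -2.68 in PMN, and its difference was 1.69 ± 0.89. Its treated PMN (2.03, 0.55, 0.29 and 1.23) lay below vehicle PMN (4.42, 3.07 and 3.62), and its monocytes overlapped.

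Cholesterol synthesis genes had medians above 0 in each response, 0.257 in monocytes and 0.406 in PMN, and 16 of 21 had the larger value in PMN (median difference -0.204). Without PMN vehicle library 3 the median difference was -0.021, with 10 above and 11 below 0, and without monocyte vehicle library 2 it was -0.0389. Mvk and Fdft1, enzymes of that pathway, had -0.77 ± 0.54 and -0.41 ± 0.24. Of 26 glycolysis and hypoxia genes 15 lay below 0 (median -0.103, but 0.11 without monocyte vehicle library 2), and Pfkfb3, which raises the activator of phosphofructokinase, had -0.61 ± 0.24 (unadjusted p = 0.0256). The clock gene Per3 had -1.09 ± 0.43 (unadjusted p = 0.025) in a list with a median of -0.229, or -0.0673 without PMN treated library 2.

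All 34 cytoplasmic ribosomal protein genes had an interval inside ±1, with 30 above 0 and a median of 0.125, and Rplp1, a stalk protein, had the smallest p (0.32 ± 0.27). Without PMN vehicle library 2 the median was 0.0162, with 19 of 34 above 0, and Rplp1 stood at 0.0975. The median ran up to 0.32 without PMN vehicle library 3. All 13 mitochondrially encoded genes lay above 0 (median 0.299), with mt-Nd4l at 0.73 ± 0.37. Without PMN treated library 3 that median was 0.107, with 10 of 13 above 0, without PMN vehicle library 1 it was 0.155, and without monocyte vehicle library 3 it was 0.502. Nuclear genes of oxidative phosphorylation had a median of 0.0417 over 28 genes. The unfolded protein response list had 18 of 20 above 0 (median 0.195) and the amino acid response list 7 of 20 (-0.171). Without PMN vehicle library 1 the first had 13 of 20 above 0 (median 0.0743), and without monocyte vehicle library 2 the second had 13 of 20 above 0 (median 0.0901).

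Erythroid genes, which mark red cell precursors in the spleen, had the highest list median, 1.38, with 17 of 19 above 0 and 0 past the threshold. Their median effect was -0.82 in monocytes and -2.32 in PMN. Hbb-bs, an adult β-globin with a near-identical neighbour, stood at 10.50, 12.05 and 10.10 in vehicle PMN and at 7.72, 9.603, 8.67 and 8.26 in treated PMN. In monocytes it stood at 8.73, 11.27 and 10.38 with vehicle and 10.65, 9.52, 8.32 and 8.88 after treatment. Its difference was 1.54 ± 0.98, and that of Bpgm, an enzyme of red cell metabolism, 0.68 ± 0.33. Erythroid list means were 3.82, 6.04 and 3.40 in vehicle PMN and 1.81, 3.32, 2.69 and 1.92 in treated PMN, and 2.28, 5.12 and 2.85 in vehicle monocytes and 3.57, 2.85, 1.98 and 2.02 in treated monocytes. The median was 0.481 without PMN vehicle library 2 and 2.09 without monocyte vehicle library 2, the 2 libraries with the highest erythroid means. Many members were low: 8 of 19 had a mean below 0 in treated monocytes and 5 in treated PMN. With a pseudocount of 1 the median was 0.921.

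NK and cytotoxic lymphocyte markers depended on 1 PMN library. All 16 lay below 0 with a median of -0.936, but all 16 lay above 0, with a median of 0.399, without PMN vehicle library 2. The list mean in that library was 0.52, against 4.59 and 5.68 in the other vehicle PMN and 2.70 to 4.76 in treated PMN. Gzma, for granzyme A, had -1.69 ± 1.69, and 0.17 without that library. Nkg7, a cytotoxic granule protein, had -0.71 ± 0.97 and 0.29 without it. In monocytes 4 of the 16 markers had a vehicle mean below 0 and 6 a treated mean below 0.

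T cell markers had 18 of 21 members below 0 (median -0.736), and 9 of 21 without monocyte vehicle library 1 (median 0.0901). Themis, of T cell receptor signalling, had -1.59 ± 1.005 and Cd3e, a chain of the T cell receptor complex, -1.43 ± 1.05. All 17 B cell markers lay above 0 (median 0.42), with Blk and Cd22, a kinase and an inhibitory receptor of B cells, at 0.88 ± 0.54 and 0.99 ± 0.63. Without PMN vehicle library 1, whose B cell mean of 5.47 was the highest, 13 of 17 lay above 0 (median 0.139). The parts of erythroid, NK, T and B cell RNA in the differences of other genes were not tested.

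Resident and red pulp macrophage markers had 15 of 17 above 0 and a median of 0.793 (0.22 in monocytes and -0.397 in PMN). Mrc1, the mannose receptor, had 1.63 ± 1.04 and Spic, the factor that directs red pulp macrophages, 1.76 ± 1.22. The list mean was 5.23 in PMN vehicle library 1 and 3.31 to 4.42 in all other PMN, and without that library the median was 0.337. Of 13 complement genes 9 lay above 0 (median 0.737, but 0.0606 without PMN vehicle library 1 and 0.0734 without PMN vehicle library 2). Eosinophil markers had 7 of 8 below 0 (median -0.881), with Siglecf at -0.73 ± 0.49. That median was -0.201 without PMN vehicle library 1, -1.73 without PMN vehicle library 3 and -0.606 with a pseudocount of 1. In treated monocytes 5 of these 8 markers had a mean below 0. Plasma cell markers had a median of 0.103, but -0.629 without monocyte vehicle library 2. Acinar pancreas markers, of which 5 of 28 were kept, had a median of -0.0565.

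The 10 remaining lists also had 0 members past the threshold. Fatty acid uptake and oxidation genes had 18 of 22 above 0 (median 0.139, 0.0783 to 0.313 without single libraries), and heat shock chaperones 11 of 14 (median 0.102). Glucocorticoid-induced genes had a median of -0.0722 and nuclear and small noncoding RNAs one of -0.0761. Conventional dendritic cell markers had 11 of 15 above 0 (median 0.369, but -0.168 without PMN vehicle library 2), and plasmacytoid dendritic cell markers 5 of 9 (median 0.152, but -0.33 without monocyte vehicle library 2). All 5 mast cell and basophil markers lay below 0 (median -0.479), as did 6 of 9 stem and progenitor genes (-0.438). Platelet markers (median -0.217) and stromal and endothelial markers (-0.552) each had 3 of 5 below 0. Without monocyte vehicle library 2 the mast cell and basophil median was -0.14, with 3 of 5 below 0, and the stromal and endothelial median -0.0075. Without PMN treated library 2 the stem and progenitor median was -0.0377, and without monocyte vehicle library 3 the platelet median was 0.109.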

How the data were processed

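Deposited log2 values of the 14 sorted-cell libraries were used as the authors gave them (named log2 RPKM per the file headers), with no count test since depth and counts are unknown. Per the submitters' processing notes, TopHat2, STAR and limma were used with mm10; their versions and roles are not given in the sources used here. The values have nearly the same distribution in every library (median gap between sorted values 0.00363). Of 14131 genes, 13968 with a value of at least 0 in at least 3 libraries were tested. Symbols came from GENCODE M21 (GRCm38; 13886 matched, 245 not). Sex-chromosome genes were not analysed here.

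Differences were tested with limma 3.58.1 in R 4.3.3 (4 group means, eBayes with mean trend, two-sided), adjusted by Benjamini-Hochberg over all genes, threshold 0.05. The fit was run on simulated data with noise drawn for each gene on its own. That run does not cover shifts shared by many genes of a library. Members and lists were chosen with earlier results of these data known. Named genes are, since none passed, the 12 of smallest p per direction (highest group mean at least 1, no predicted models or small RNAs, and no pseudogenes, an exclusion added to the written rule), up to 3 of smallest p per list, members of highest mean for other cell types, and the 4 PI3K catalytic genes. Alternatives covered filter, pseudocount of 1, scaling, eBayes settings, weights, fits per cell type, replicate blocks and single libraries. Leave-outs for lists and of both vehicle libraries numbered 2 were added after seeing the data. Some genes that this rule names are not reported here.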

Additional observations from a re-analysis of the deposited data

Results flagged for a closer look

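Single libraries stood apart within treated groups of 4 in 8 of 288 groups looked at (92 genes and 52 list means, in each treated group). The gap to the nearest other library, divided by the range of the group, was above Dixon's critical value at the 95% level. Chance gives about 1 in 20 such groups.

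Lars2 stood at 8.02 in treated PMN library 4 and at 9.04 to 9.10 in the other 3. Oxr1 stood at 7.45 in treated monocyte library 1 and at 7.57 to 7.58 in the others. Rell2 stood at 3.95 in treated PMN library 2 and at 4.37 to 4.44 in the others. Pik3cd stood at 8.65 in treated PMN library 2 and at 9.05 to 9.11 in the others. The high one was mt-Nd4l, at 12.02 in treated monocyte library 4 and 11.72 to 11.75 in the others. In treated PMN library 2 the mean of the PI3K list was 6.37, against 6.49 to 6.51, and that of the amino acid response list 4.86, against 4.90. In treated PMN library 4 the mean of the clock list was 3.31, against 3.22 to 3.23.

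Gm15564 (-2.21), Gm6710 (0.74) and Rpl36-ps12 (-1.98) had treated libraries on opposite sides of all vehicle libraries in the 2 cell types. The difference between the effects was tested with limma and did not pass for any of them (adjusted p = 0.9998).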

How the results depend on the processing

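The count of genes past the threshold for the difference was 0 in every one of 12 other settings and without each of the 14 libraries. Settings moved the count at an unadjusted p under 0.05 from 269 to between 223 and 384. Leaving out single libraries moved it between 160 (without monocyte vehicle library 1) and 2143 (without monocyte vehicle library 3, smallest adjusted p = 0.251 by limma). Without PMN vehicle library 3 it was 852. In monocytes (335) it was 2984 without monocyte vehicle library 3 and 197 without monocyte treated library 4. In PMN (430) array weights gave 989 and leaving out PMN vehicle library 3 gave 1036. The weights did not converge and all but dropped monocyte vehicle library 1 (weight 2.47e-06). Without both vehicle libraries numbered 2, a setting chosen after seeing the data, 4 genes passed in monocytes (Gm6139, Gm12366, Gm6433 and Gm9825) and 1 in PMN (Slc9a3r2). The cause was not tested.

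The replicate numbers did not meet the rule for pairing. The correlation of same-numbered libraries ran from -0.223 to 0.457, and 5 of 7 numbers correlated best with their own number, a hint from the data and not the design. With number within treatment as a replicate block, 0 genes passed for the difference, fixed (smallest adjusted p = 0.9745 by limma) or random (0.9822). The permutation test over paired differences was therefore not run.

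The 24 named genes kept their sign in all 17 settings run for genes, and no gene of 92 crossed the threshold. The 24 were chosen by smallest p in these same libraries, which makes a kept sign likely and no separate support. The 7 genes below changed sign without a single library. Their ranges were -0.2792 to 0.084 for Pik3ca, -0.0395 to 0.439 for Pik3cd, -0.0954 to 0.1831 for Pik3cg, -0.0213 to 1.4186 for Oas2, -1.4363 to 0.0337 for Slfn4, -2.8875 to 0.1691 for Gzma and -1.5032 to 0.2931 for Nkg7. Depth is unknown, so what it limits could not be given.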
